A study of Mus musculus with 6 samples.

Results

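RNA levels of 36 genes of the unfolded protein response (UPR) and of protein folding in the endoplasmic reticulum (ER) were compared between the lungs of Zpbp2 KO and WT mice. The genes were taken from a fixed list of symbols that leaves out the heat shock and J-domain chaperones, and each of the 36 was found once among the 41388 genes of the count table. All mice were adult and on a C57BL/6J background, and every lung was taken at ZT7 (Zeitgeber time, hours after lights on). WT mice were C57BL/6J animals of the same colony. KO mice carried a germline deletion of exons 1 to 3 of Zpbp2 and of part of its promoter, which is present in every cell and was made in another strain before transfer to C57BL/6J. The study asked whether circadian rhythms regulate Zpbp2 and Ormdl3, and whether the Zpbp2 region affects transcription of the clock gene Nr1d1. For each genotype, 3 libraries of whole lung were sequenced.

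The UPR adjusts the folding capacity of the ER to the load of proteins that enter it. The membrane sensors IRE1 (Ern1), PERK (Eif2ak3) and ATF6 detect misfolded proteins. IRE1 splices Xbp1 mRNA, PERK phosphorylates the initiation factor eIF2alpha and so favours translation of ATF4, and ATF6 is cut by the proteases of the Mbtps1 and Mbtps2 genes in the Golgi. Their targets are chaperones and disulfide isomerases, the machinery that returns misfolded proteins to the cytosol for degradation (ERAD), and stress genes such as Ddit3 (CHOP). Secretory cells such as alveolar type 2 cells, club cells and plasma cells use this machinery heavily. Much of the UPR acts through splicing, cleavage and phosphorylation, which counts per gene do not measure.

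The libraries held 59134950 to 71354388 counts, and the lowest count of any of the 36 genes in any library was 109 (Derl3 in WT3), so that all 36 were tested. Levels are given as CPM, the counts as parts of a library size scaled with TMM factors. Zpbp2 had 20, 15 and 7 counts in WT1 to WT3 and 1, 0 and 0 in KO1 to KO3. KO2 and KO3 differed by little more than counting noise, with a variance of 1.71 to 3.35 times the counting variance from the lowest to the highest counts. For WT1 and WT2 it was 1.85 to 52.7 times, which is close to KO2 and KO3 at the lowest counts only, and for KO1 and KO2 3.76 to 163 times. The pair of KO2 and KO3 was taken as 1 sample, which left 3 WT and 2 KO samples. WT3 and KO1 stood apart on the leading principal component (66.3% of the variance). These carried transcripts of squamous epithelium (4679 and 8969 summed CPM against 9.85 to 11.1 in the other libraries) and of skeletal muscle (3594 and 5154 against 42.5 to 108). Genes of alveolar type 2 cells, which mark lung, were present in every library, at 26440 to 38854 summed CPM. The 12 adipocyte markers, all with estimates below 0 in KO and with Lpl, Pck1 and Plin1 called, summed to 4621 to 7873 CPM in WT and 2631 to 2652 CPM in KO, and the 7 erythroid markers, all with estimates above 0, to 2400 to 5522 CPM in WT and 3966 to 19736 CPM in KO. In whole lung, fewer cells of a type and less RNA per cell cannot be told apart.

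Binding sites of the UPR factors are shown first, because they are a feature of the listed genes that does not depend on their measured levels. The ER stress response element (ERSE), bound by ATF6 with NF-Y, reads CCAAT, 9 bases of any kind and CCACG. ERSE-II reads ATTGG, 1 base of any kind and CCACG. Both strands of the RefSeq promoter windows of GRCm38.p6, 250 bases before to 50 bases after each gene start, were searched. Windows were given for 30 of the 36 genes, all but Atf6, Atp2a2, Derl1, Hyou1, Manf and Sec61a1. A full ERSE was found in 6 of the 30 genes (20%), against 21 of 12726 tested genes with a window, these 6 included (0.165%), and 0.119% of all 32851 windows. ERSE-II was found in 1 of the 30, against 0.0629% of tested genes. Each element is written from CCAAT or ATTGG to CCACG with 6 bases on either side, and capitals mark the fixed letters.
Calr: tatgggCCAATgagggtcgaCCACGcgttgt
Canx: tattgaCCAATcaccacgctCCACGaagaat
Pdia6: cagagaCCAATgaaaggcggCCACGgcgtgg
Creld2: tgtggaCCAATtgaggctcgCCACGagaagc
Syvn1: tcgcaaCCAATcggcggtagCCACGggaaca
Derl3: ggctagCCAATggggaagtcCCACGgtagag
Herpud1: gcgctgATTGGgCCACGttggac
The elements without their flanks lie at chr8:84847075-84847093 (plus strand) for Calr, chr11:50325800-50325818 (minus) for Canx and chr12:17266491-17266509 (plus) for Pdia6. Those of Creld2, Syvn1 and Derl3 lie at chr15:88819520-88819538 (minus), chr19:6046532-6046550 (plus) and chr10:75893242-75893260 (minus), and that of Herpud1 at chr8:94386377-94386387 (plus). The UPR element TGACGTGG and the form TGATGNAAT of the ATF4 with C/EBP element were in none of the windows of these 30 genes. They were in 1.05% and 0.605% of tested genes. Only these letters were searched, so ATF4 sites with another last base were not counted. Such near matches lie in the windows of Asns (tgatgaaac) and, on the opposite strand, of Chac1 and Herpud1 (both gttgcatca as the window reads). Their share among tested genes was not measured. In the window of Creld2 the ERSE runs on the opposite strand, and its CCACG end lies 126 bases before the start of the gene.
Creld2 window, chr15:88819396-88819695 (plus): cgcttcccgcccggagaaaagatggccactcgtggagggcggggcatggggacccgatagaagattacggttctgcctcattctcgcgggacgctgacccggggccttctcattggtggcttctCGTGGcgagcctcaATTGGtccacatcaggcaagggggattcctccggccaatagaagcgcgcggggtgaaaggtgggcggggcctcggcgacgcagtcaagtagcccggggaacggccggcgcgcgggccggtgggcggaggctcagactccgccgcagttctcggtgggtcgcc
Calr window, chr8:84846882-84847181 (minus): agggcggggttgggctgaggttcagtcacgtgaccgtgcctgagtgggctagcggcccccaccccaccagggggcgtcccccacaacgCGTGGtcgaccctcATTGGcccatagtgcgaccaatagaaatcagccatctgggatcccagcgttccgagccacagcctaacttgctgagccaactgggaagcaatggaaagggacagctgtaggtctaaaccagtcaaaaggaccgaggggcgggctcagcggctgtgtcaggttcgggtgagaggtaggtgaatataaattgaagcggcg
These windows are shown side by side because their genes lay on opposite sides of 0 in the comparison of genotypes. The 7 genes with an ERSE or ERSE-II did not share a direction. Their log2 fold changes of KO against WT were 0.29 for Creld2, 0.26 for Herpud1, 0.16 for Syvn1, 0.05 for Derl3, -0.04 for Pdia6, -0.13 for Calr and -0.19 for Canx, and none of them passed the test.

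Across the 36 genes, 2 rose in KO lungs and 0 fell. Manf and Sec61b rose, by a log2 fold change of 0.40 and 0.44. These 2 of 36 genes (5.56%) passed edgeR's quasi-likelihood test at a threshold of 0.05 after Benjamini-Hochberg adjustment, where 2.28% of all 18660 tested genes were called (1.38% higher and 0.906% lower in KO). Before adjustment 18 of the 36 genes had a p within 0.05, 10 higher and 8 lower, against 27.3% of all genes. The median log2 fold change was 0.02 over the 36 genes and 0.02 over all tested genes, and apart from Atp2a2 (-1.24) the estimates lay between -0.29 and 0.57. These medians were -0.02 and -0.02 without KO1, and -0.04 and -0.04 with library size alone. In 28 of the 36 genes (77.8%) the 6 libraries did not overlap between the genotypes, with all KO libraries above WT in 14 and below WT in 14. Over all tested genes this was so for 40.8%, 20% above and 20.7% below. With the 6 libraries kept separate, 12 of the 36 genes were called, 8 higher and 4 lower, against 18.9% of all genes (9.81% higher and 9.07% lower), but that fit counts KO2 and KO3 as independent. Under that fit, Ddit3, Atf4, Ppp1r15a, Trib3, Creld2, Manf, Sec61b and Atp2a3 were higher, and Atf6, Creb3l2, Sel1l and Atp2a2 lower.

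**Figure D1:**
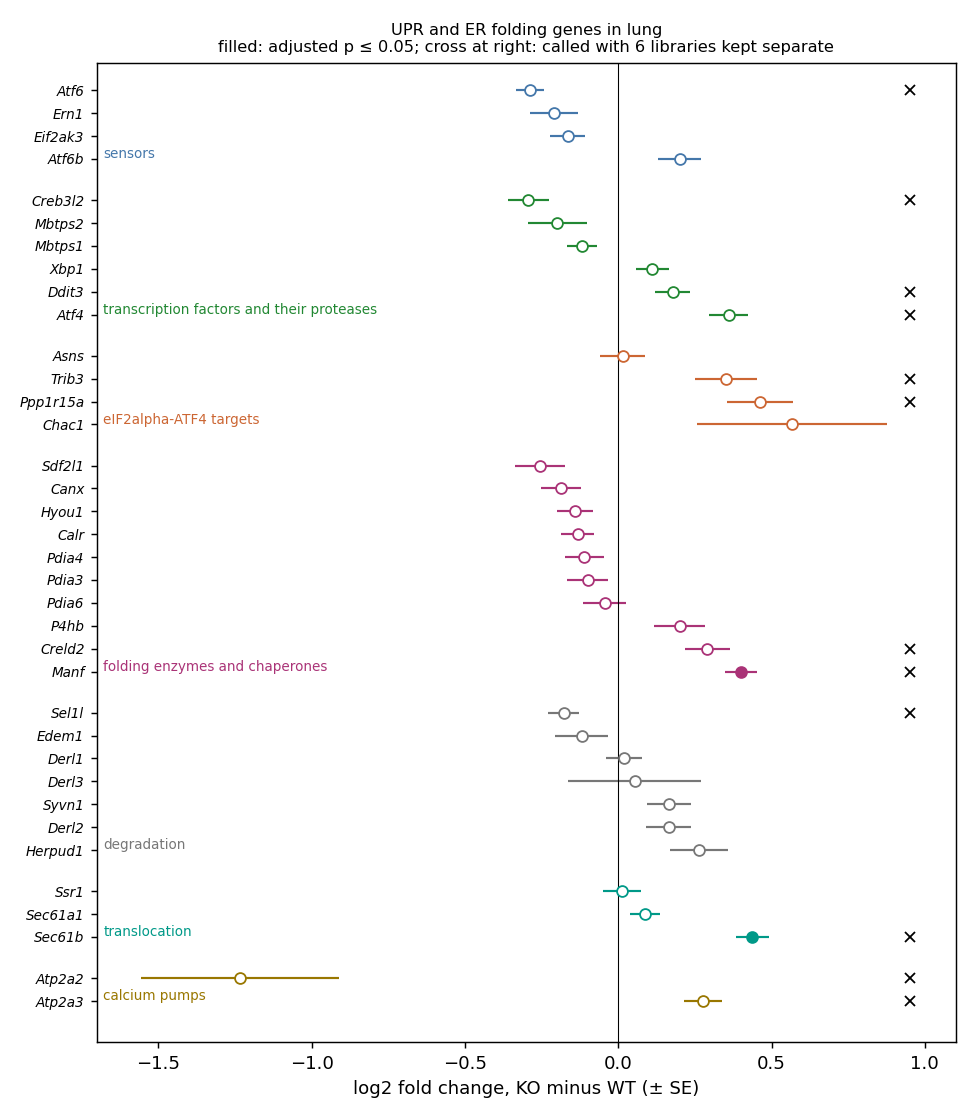
Log2 fold change of KO against WT with its standard error (x axis) for the 36 genes by role, from the fit with KO2 and KO3 as 1 sample. Filled points are Manf and Sec61b, the genes with an adjusted p of at most 0.05, and crosses mark the 12 genes called with the 6 libraries kept separate.

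The levels of the genes spanned a wide range. Per exon length, the disulfide isomerase P4hb had the highest mean, at 202 CPM per kb of exon in WT, followed by the lectin chaperone Calr (185), the calcium pump Atp2a2 (182) and the disulfide isomerase Pdia3 (166). Over both genotypes these means were 217 for P4hb, 176 for Calr, 130 for Atp2a2 and 160 for Pdia3, and the other genes are given in this way. The sensors were far lower on this scale, at 25.1 for Atf6b, 12.0 for Atf6, 8.61 for Ern1 and 8.03 for Eif2ak3, while Atf4 was at 101 and Xbp1 at 62.4. Derl3, an ERAD channel component typical of plasma cells, was lowest at 1.04 CPM per kb. The spread among WT mice was small. Its coefficient of variation (SD over mean, n = 3) was 0.269% for Mbtps1, 0.851% for Atf6 and 0.959% for Sec61b, and the highest values were 38.1% for Atp2a2 and 25.7% for Chac1.

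**Figure D2:**
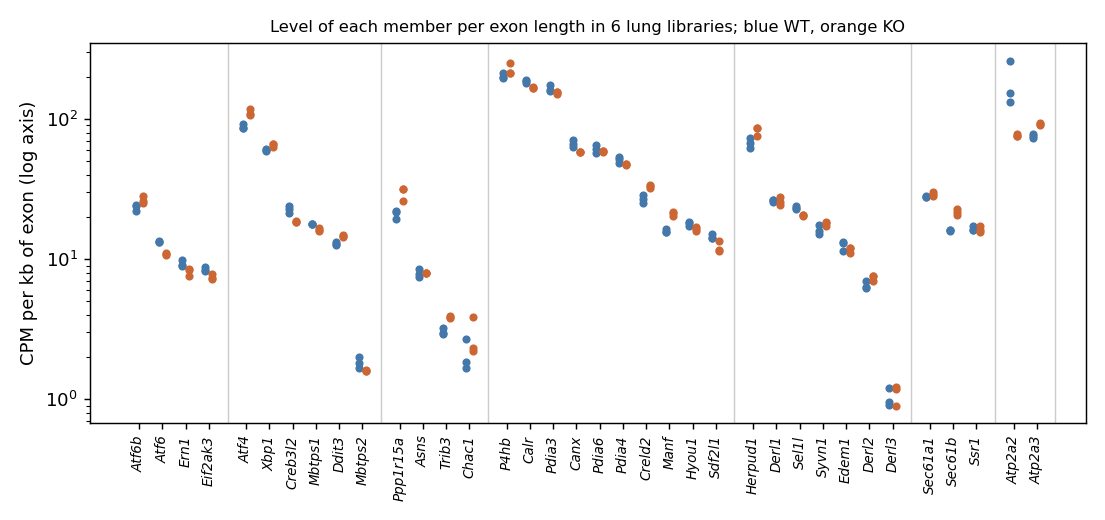
Level of each gene in CPM per kb of exon (log axis) in the 3 WT (blue) and 3 KO (orange) libraries, grouped by role. P4hb, Calr, Pdia3 and the WT libraries of Atp2a2 lie highest and Derl3 lowest, and Atp2a2 and Chac1 show the widest spread among WT libraries.

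Of the 4 sensors, none passed the test, and the transcripts of the 3 classical sensors had estimates below 0. Atf6 (chr1:170704674-170867771, minus strand of GRCm38) encodes the sensor that is released from the ER and cut to become a transcription factor. Its level was 122, 122 and 124 CPM in WT1 to WT3 and 99.2, 101 and 99.8 CPM in KO1 to KO3. All KO libraries lay below all WT libraries, with very little spread in either genotype. On the log2 scale KO minus WT was -0.29 (SE 0.04), and the edgeR adjusted p of 0.0501 narrowly missed the threshold. The adjusted p was 0.00822 with the 6 libraries kept separate and 4.69e-10 to 0.458 across 16 alternatives, of which 7 called the gene. An offset for exon length and GC content, described further on, brought the estimate to -0.08. Ern1, which encodes the Xbp1-splicing sensor, was at 72.7, 73.7 and 80.4 CPM in WT and 61.5, 68.5 and 69.3 CPM in KO. Its lowest value was in KO1, and the log2 fold change was -0.21 (SE 0.08, edgeR adjusted p 0.172). The estimate was -0.14 without KO1 and -0.09 without WT3 and KO1 together. Eif2ak3, the eIF2alpha kinase, was at 49.9, 53.0 and 50.7 CPM in WT and 47.5, 43.3 and 43.9 CPM in KO. Here KO1 was the KO library closest to WT, and the log2 fold change was -0.16 (SE 0.06, edgeR adjusted p 0.149). The paralogue Atf6b, whose product is a weaker activator than ATF6, had all KO libraries above WT (69.2 to 77.3 against 60.6 to 67.3 CPM) and a log2 fold change of 0.20 (SE 0.07, edgeR adjusted p 0.154), which was 0.13 without KO1.

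Of the 6 genes for transcription factors and their activating proteases, none passed the test, and all 6 had genotypes that did not overlap, 3 above and 3 below WT. Atf4 (chr15:80255184-80257541), the effector of the PERK branch, was at 204, 205 and 216 CPM in WT and 280, 254 and 252 CPM in KO. KO1 was highest, and every KO library exceeded every WT library. This gave 0.36 on the log2 scale (SE 0.06, edgeR adjusted p 0.0537, against 0.0154 with the 6 libraries kept separate and 1.64e-05 to 0.207 over 16 alternatives), or 0.23 with the offset. Ddit3 (chr10:127290774-127296288), the ATF4 target CHOP, was at 22.1, 22.5 and 21.6 CPM in WT and 24.7, 25.3 and 24.9 CPM in KO. Its groups were close together but did not overlap, with a log2 fold change of 0.18 (SE 0.06, edgeR adjusted p 0.132). Ddit3 shares 105 exon bases with a second gene entry of the same name on the same strand, so its counts are uncertain. Xbp1 (chr11:5520659-5525893) was at 193, 199 and 194 CPM in WT and 205, 216 and 214 CPM in KO. All KO libraries were slightly higher, by 0.11 in log2 units (SE 0.05, edgeR adjusted p 0.249). This is the sum of spliced and unspliced Xbp1 mRNA.

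Creb3l2 (chr6:37327255-37442146), a membrane-bound factor related to ATF6 that promotes secretory pathway genes, was the lowest of this group by fold change. It was at 174, 155 and 167 CPM in WT and at 135, 135 and 134 CPM in KO. The KO libraries were nearly identical and lay below WT. KO minus WT was -0.29 on the log2 scale (SE 0.07, edgeR adjusted p 0.0763, against 0.0159 with the 6 libraries kept separate and 0.000916 to 0.286 over 16 alternatives). The proteases that cut ATF6 and CREB3L2, Mbtps1 and Mbtps2, had log2 fold changes of -0.12 and -0.20 (edgeR adjusted p 0.194 and 0.258), both above 0 with the length and GC offset described further on (0.07 and 0.04). Mbtps2 shares exon bases with Yy2 on the same strand, so its counts are uncertain.

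Among the 4 targets of the eIF2alpha and ATF4 branch, none passed the test and all 4 estimates lay above 0. Ppp1r15a (GADD34, chr7:45522916-45526268), the phosphatase subunit that reverses eIF2alpha phosphorylation, was at 65.3, 56.9 and 63.4 CPM in WT and 76.9, 93.1 and 92.5 CPM in KO. KO1 was the KO library closest to WT. The estimate was 0.46 in log2 units (SE 0.11, edgeR adjusted p 0.0779, against 0.0173 with the 6 libraries kept separate and 0.00145 to 0.274 over 16 alternatives). With a term for squamous epithelium Ppp1r15a passed (0.48, edgeR adjusted p 0.0402), and without WT3 and KO1 together the estimate was 0.60. The summed level of 14 immediate early genes was likewise lowest in WT, between in KO1 and highest in KO2 and KO3, at 1209 to 1774 CPM in WT, 2467 CPM in KO1 and 4622 and 4624 CPM in KO2 and KO3, all 14 had estimates above 0 with 0 called, and none was at 0 counts in any library. Their part in the result for Ppp1r15a was not tested.

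Trib3, a pseudokinase that ATF4 and CHOP induce, was at 6.83, 6.25 and 6.27 CPM in WT and 8.08, 8.39 and 8.24 CPM in KO. The groups did not overlap, and the log2 fold change was 0.35 (SE 0.10, edgeR adjusted p 0.110, against 0.0335 with the 6 libraries kept separate and 0.0121 to 0.599 over 16 alternatives). Chac1, a glutathione-degrading enzyme, had the highest estimate of the 36 genes, 0.57, but the largest error of this group (SE 0.31, edgeR adjusted p 0.310). It was 0.13 without KO1, 0.79 without WT3 and 0.36 without both. It was no longer the highest under several alternatives, among them without KO1, without WT1, without both WT3 and KO1, and with the 6 libraries kept separate. It was at 3.02, 2.75 and 4.37 CPM in WT and 6.28, 3.82 and 3.60 CPM in KO. WT3 and KO1 were the highest libraries of their genotypes, and the genotypes overlapped. Asns, the asparagine synthetase that ATF4 induces when amino acids are short, was at 20.4 to 23.1 CPM in WT and 21.8 to 21.9 CPM in KO, with an estimate of 0.01 (SE 0.07, edgeR adjusted p 0.922) and a range of -0.02 to 0.06 with 1 library left out.

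**Figure D3:**
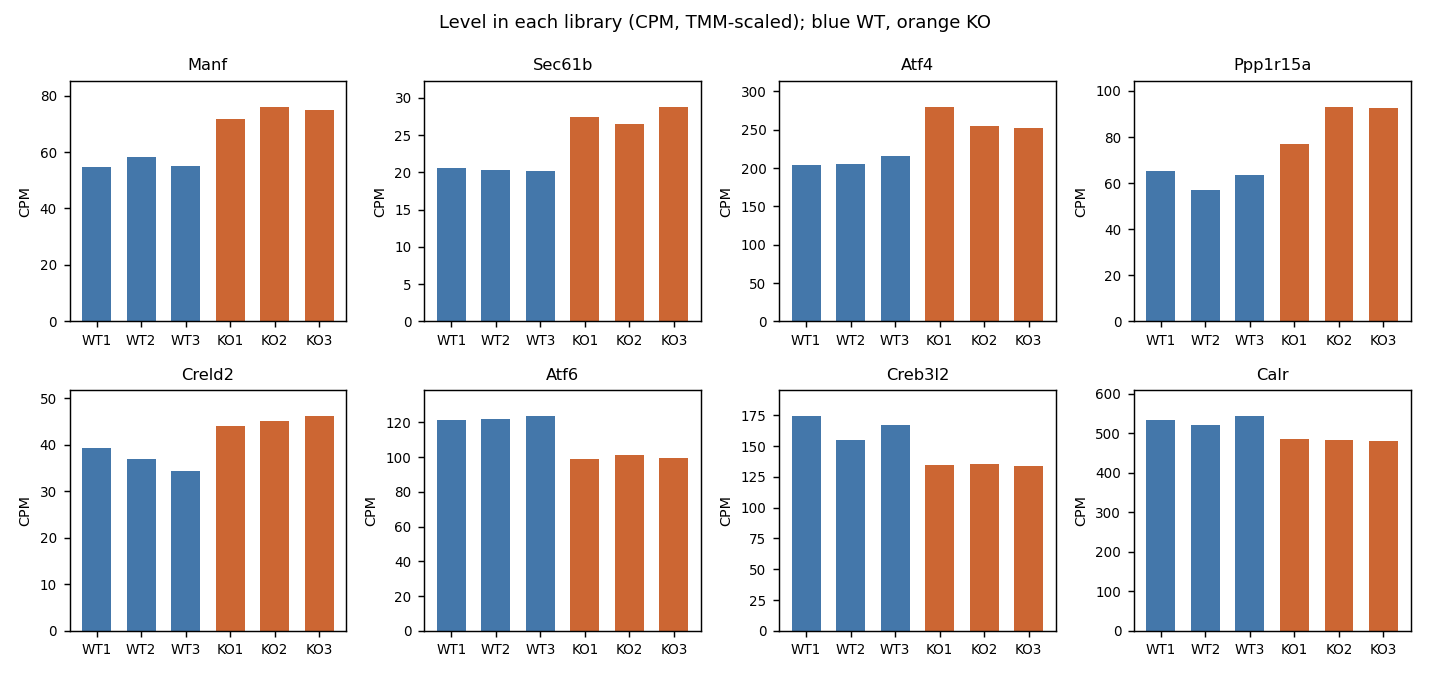
CPM in each library (y axis from 0) for 8 of the genes, WT in blue and KO in orange. In all 8 panels the KO libraries lie on one side of the WT libraries, above for Manf, Sec61b, Atf4, Ppp1r15a and Creld2 and below for Atf6, Creb3l2 and Calr.

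Of the 10 folding enzymes and chaperones, Manf rose and the other 9 did not pass the test, with 7 of the 10 estimates below 0. Manf (chr9:106838312-106891979, minus strand) encodes a small secreted and ER-resident protein that ER stress induces and that protects cells from it. It was at 54.6, 58.2 and 55.0 CPM in WT and 71.8, 76.0 and 74.7 CPM in KO. Means were 55.9 ± 1.96 CPM (SD, n = 3) for WT and 73.6 ± 2.54 CPM (SD, n = 2) for KO, and the gap between the genotypes exceeded the spread within either. The rise was 0.40 in log2 units (SE 0.05, edgeR adjusted p 0.0449, against 7.12e-08 to 0.189 over 16 alternatives, of which 10 called it). Manf did not pass without WT1, WT2, WT3 or KO1 (0.173, 0.189, 0.123 and 0.0868), when 0, 0, 0 and 17 of all genes passed. It also did not pass with library size alone (0.35, adjusted p 0.0536) or with the length and GC offset (0.39, adjusted p 0.134). The difference was 0.38 from WT3 to KO1 and 0.42 from WT1 and WT2 to KO2 and KO3. Manf shares a few exon bases with Rbm15b on the same strand and more with Dcaf1 and an antisense transcript on the other strand, so part of its counts is uncertain.

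Creld2, a secreted ER stress protein with EGF-like domains, was at 39.3, 36.8 and 34.3 CPM in WT and 44.1, 45.1 and 46.1 CPM in KO. The groups did not overlap. The estimate was 0.29 in log2 units (SE 0.07, edgeR adjusted p 0.0887, against 0.0214 with the 6 libraries kept separate and 0.0093 to 0.769 over 16 alternatives). P4hb, the abundant disulfide isomerase, was at 563, 568 and 606 CPM in WT and 714, 612 and 614 CPM in KO. The values of KO2 and KO3 were close to that of WT3, and the log2 fold change of 0.20 (SE 0.08) had an edgeR adjusted p of 0.204. Without KO1, the highest library, the estimate was 0.08.

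The remaining chaperones and isomerases had estimates below 0. The lectin chaperones of the calnexin cycle, Calr and Canx, were at 520 to 543 and 296 to 330 CPM in WT and at 481 to 486 and 273 to 274 CPM in KO. Both had KO libraries below all WT libraries, by -0.13 (SE 0.05) and -0.19 (SE 0.07) in log2 units, with edgeR adjusted p of 0.196 and 0.153. Sdf2l1, a partner of the J-domain chaperones, was at 15.6, 16.7 and 15.7 CPM in WT and 12.8, 14.9 and 12.7 CPM in KO (log2 fold change -0.26, SE 0.08, edgeR adjusted p 0.131). Hyou1, a nucleotide exchange factor, and the isomerases Pdia3, Pdia4 and Pdia6 had estimates of -0.14, -0.10, -0.11 and -0.04, with edgeR adjusted p of 0.199 to 0.730. Of these only Pdia6 had genotypes that overlapped. Without WT2 the estimates of Pdia3 and Pdia6 were -0.06 and -0.0032, and that of Pdia6 was -0.10 without WT3. The ER chaperone BiP (Hspa5), whose release activates the sensors, is not among the 36 genes. It was at 546, 552 and 506 CPM in WT and 466, 464 and 461 CPM in KO, with a log2 fold change of -0.20 (SE 0.06, edgeR adjusted p 0.134). The adjusted p was 0.0358 with the 6 libraries kept separate and 0.0157 to 0.389 over 16 alternatives, of which 2 called it lower. With the length and GC offset described further on the estimate was -0.13.

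Of the 7 ERAD genes none passed the test. Herpud1, which assembles the degradation complex and is a sensitive UPR target, had the highest estimate. It was at 146, 157 and 170 CPM in WT and 177, 201 and 200 CPM in KO. The difference was 0.05 on the log2 scale from WT3 to KO1 and 0.41 from WT1 and WT2 to KO2 and KO3, and the fit gave 0.26 (SE 0.09, edgeR adjusted p 0.159). Without WT3 and KO1 it was 0.41 with an adjusted p of 0.0259, the only one of 16 alternatives (0.0259 to 0.507) to call it. Sel1l, the scaffold of the ubiquitin ligase complex, was at 194, 204 and 197 CPM in WT and 173, 178 and 176 CPM in KO. The groups did not overlap, and the log2 fold change was -0.18 (SE 0.05, edgeR adjusted p 0.107, against 0.0329 with the 6 libraries kept separate and 0.00284 to 0.973 over 16 alternatives). With the length and GC offset it was 0.0045. The ligase itself, Syvn1, was at 73.7 to 84.5 CPM in WT and 83.9 to 89.6 CPM in KO (log2 fold change 0.16, edgeR adjusted p 0.218). Derl2 had an estimate of 0.16, Derl1 of 0.02, Derl3 of 0.05 and the mannosidase-like Edem1 of -0.12. With 1 library left out, Edem1 went from -0.19 (without WT1) to -0.07 (without KO1), Derl1 from -0.06 to 0.04 and Derl3 from -0.02 to 0.24. Derl3 was at 1.82 to 2.38 CPM in WT and 1.79 to 2.43 CPM in KO, while the 8 plasma cell markers, all detected in every library, summed to 319 to 363 CPM in WT and 381 to 434 CPM in KO, with 6 of 8 estimates above 0 and Sdc1 called. Sdc1 was also the most abundant of these 8 markers. All KO libraries lay above all WT libraries for 1 of the markers and below them for 2. The part of plasma cells was not tested.

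Sec61b was the other gene that rose. It lies at chr4:47474658-47483242 on the plus strand and encodes the beta subunit of the Sec61 channel, through which new proteins enter the ER. It was at 20.5, 20.4 and 20.2 CPM in WT and 27.4, 26.5 and 28.8 CPM in KO. Means were 20.4 ± 0.195 CPM (SD, n = 3) for WT and 27.5 ± 0.180 CPM (SD, n = 2) for KO, and the gap between the genotypes exceeded the range of the libraries within either. The KO SD is small because KO2 and KO3, which lay on either side of KO1, were averaged. The rise was 0.44 in log2 units (SE 0.06, edgeR adjusted p 0.0446, against 9.85e-10 to 0.442 over 16 alternatives, of which 10 called it). With the length and GC offset described further on it was 0.25 and not called (0.442), and with library size alone it was 0.38 (0.0519). Sec61b did not pass without WT1, WT2, WT3 or KO1 either (0.170, 0.189, 0.123 and 0.0854). The pore subunit Sec61a1 was at 185 to 189 CPM in WT and 190 to 204 CPM in KO, with an estimate of 0.09 (SE 0.05, edgeR adjusted p 0.330), or 0.04 without KO1. Ssr1, a subunit of the translocon-associated complex, was at 167 to 180 CPM in WT and 163 to 180 CPM in KO, with an estimate of 0.01 (SE 0.06, edgeR adjusted p 0.917) that ranged from -0.06 to 0.04 with 1 library left out. Of 3 marker lists of secretory lung cells, those of alveolar type 2 and club cells had higher sums in KO, as Manf and Sec61b did, and that of goblet cells did not. The 10 alveolar type 2 markers summed to 26440 to 28174 CPM in WT and 36598 to 38854 CPM in KO, and the 7 club cell markers to 32361 to 37794 CPM in WT and 42211 to 56250 CPM in KO, with no marker of either list at 0. Estimates lay above 0 for 10 of 10 alveolar type 2 markers, of which Sftpa1, Sftpc and Sftpb were called, and for 5 of 7 club cell markers, of which 0 were called. The 7 goblet cell markers summed to 152 to 198 CPM in WT and 81.4 to 170 CPM in KO, with 6 of 7 estimates below 0 and 0 called. Their part in the rise of Manf and Sec61b was not tested.

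The calcium pumps that fill the ER store, on which the calcium-binding chaperones depend, had estimates on opposite sides of 0. Atp2a2 (SERCA2, chr5:122453513-122502225, minus strand), which is also the pump of heart muscle, was at 1590, 933 and 801 CPM in WT and 479, 460 and 461 CPM in KO. WT1 was far above the other WT libraries, and all KO libraries were below every WT library. KO minus WT was -1.24 on the log2 scale (SE 0.32, edgeR adjusted p 0.0922, against 0.0220 with the 6 libraries kept separate and 0.0131 to 0.216 over 16 alternatives). The 12 cardiomyocyte markers, none of them at 0 in any library, summed to 8202, 3612 and 3359 CPM in WT1 to WT3 and 2154, 1492 and 1510 CPM in KO1 to KO3, and all 12 had estimates below 0. Atp2a2 was therefore highest in the library with the most heart transcripts, and their part in its difference was not tested. Atp2a3 (SERCA3, chr11:72961169-72993044), the pump of blood cells, platelets and some epithelia, was at 415, 385 and 397 CPM in WT and 475, 486 and 491 CPM in KO. The groups did not overlap, and the estimate was 0.28 (SE 0.06, edgeR adjusted p 0.0716, against 0.0137 with the 6 libraries kept separate and 5.5e-05 to 0.229 over 16 alternatives). The 8 platelet markers summed to 83.3 to 116 CPM in WT and 120 to 163 CPM in KO, and the 8 T cell markers to 62.2 to 74.3 CPM in WT and 75.5 to 81.0 CPM in KO, with none at 0. Estimates lay above 0 for 8 of 8 platelet and 7 of 8 T cell markers, but for 2 of 8 B cell markers (622 to 815 CPM in KO, 659 to 794 in WT) and 1 of 9 macrophage markers (371 to 389 CPM in KO, 379 to 527 in WT), of which Mrc1 fell. Of the 8 endothelial markers, 4 had estimates above 0 and 0 were called (3500 to 4298 CPM in KO, 3779 to 4024 in WT). The part of these cell types in the result for Atp2a3 was not tested.

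**Figure D4:**
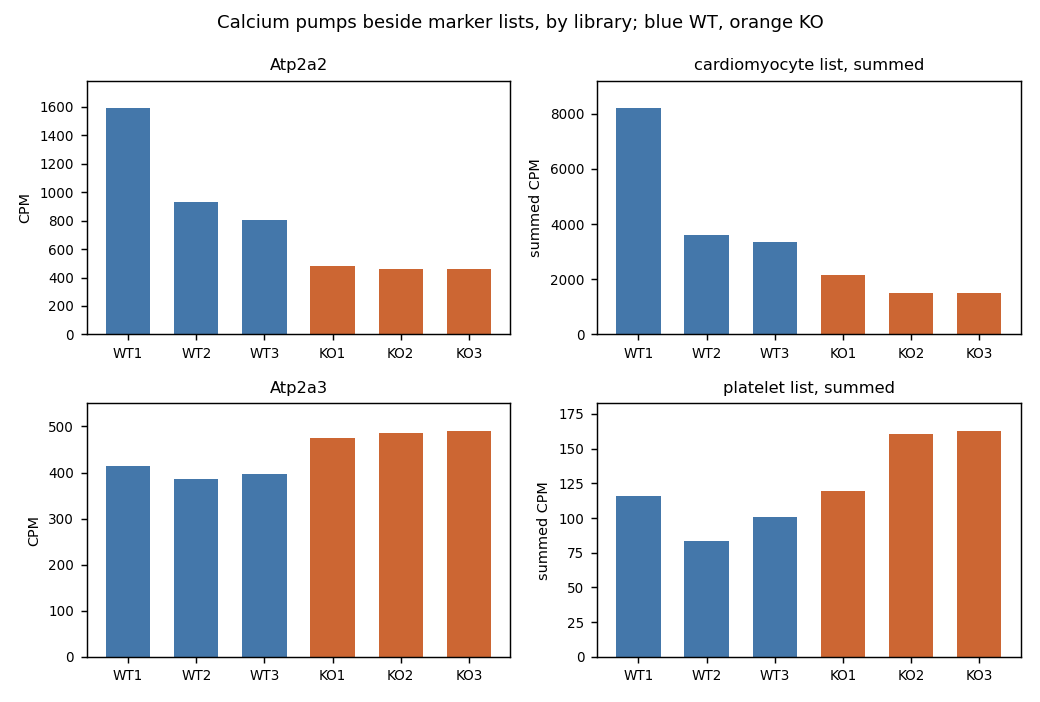
CPM of Atp2a2 and Atp2a3 (left) beside the summed CPM of the cardiomyocyte and platelet marker lists (right) in each library, WT in blue and KO in orange, all axes from 0. WT1 is highest for both Atp2a2 (1590 CPM) and the cardiomyocyte list (8202 CPM), and Atp2a3 and the platelet list are higher in KO2 and KO3 than in any WT library.

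Fold changes were read beside exon length, because over 18516 tested genes they fell with it (Spearman rho -0.33) and the same ordering ran through the 36 genes (rho -0.56). Both are descriptions across genes, which share the libraries. The short genes Sec61b (1271 bases of exon), Creld2 (1366) and Trib3 (2125) had estimates above 0, and the long genes Atf6 (9231), Sel1l (8555) and Creb3l2 (7283) below 0. Sdf2l1, the shortest at 1108 bases, was an exception, as were the long genes Derl2 (8049) at 0.16 and Ssr1 (10431) at 0.01. Fold changes rose with the GC content of the exons as well (rho 0.26 over all tested genes and 0.56 over the 36). With an offset for length and GC content in each library, rho over the 36 genes was -0.12 and 0 of them were called by edgeR, with 7 within 0.05 before adjustment and 0 of all 18516 genes called (3499 before adjustment). The log2 fold change of Manf stayed at 0.39, that of Sec61b went to 0.25, that of Atf4 to 0.23 (0.203) and that of Atf6 to -0.08. For Sdf2l1 it went to -0.45 (0.295, against 0.0305 to 0.313 across 16 alternatives). Other estimates moved by over 1.5 times under the offset. Closer to 0 were Ern1 (-0.07), Eif2ak3 (-0.09), Atf6b (0.04), Xbp1 (0.06), Creb3l2 (-0.16), Trib3 (0.19), Chac1 (0.38), Creld2 (0.12), P4hb (0.12), Canx (-0.10), Hyou1 (-0.05), Pdia6 (-0.02) and Asns (0.01). Farther from 0 were Derl2 (0.35), Ssr1 (0.25) and Sec61a1 (0.14). The sign changed for Mbtps1, Mbtps2, Edem1, Sel1l and Derl3.

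**Figure D5:**
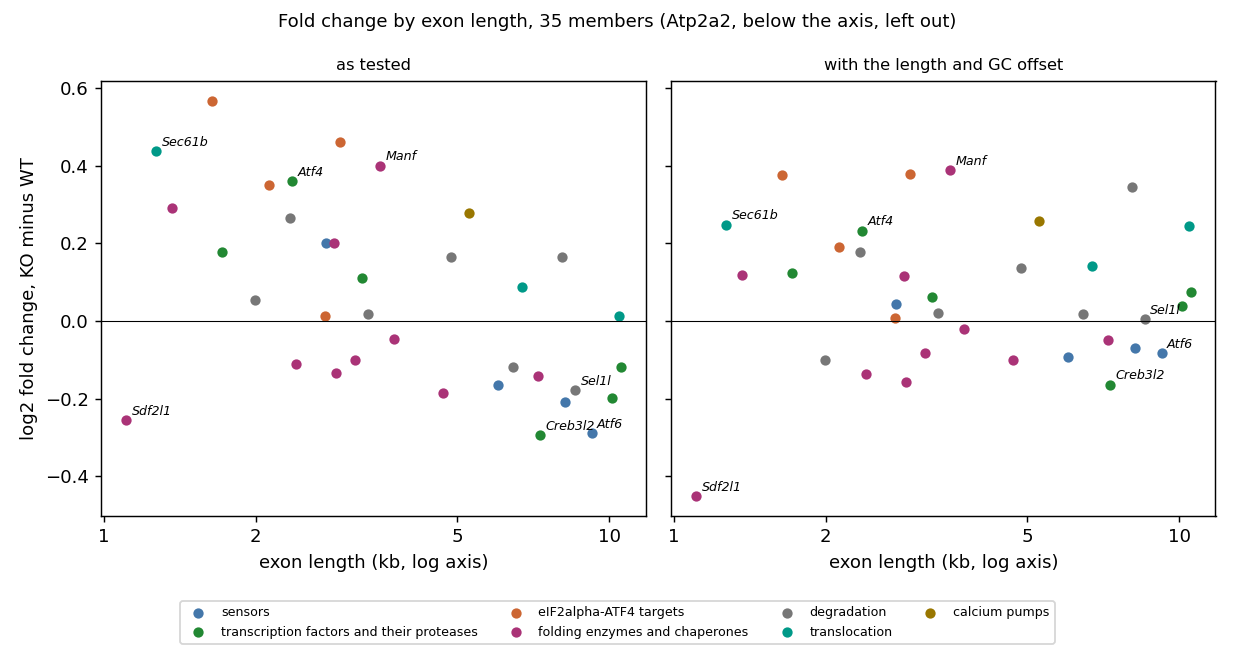
Log2 fold change of KO against WT by exon length (kb, log axis) for 35 of the 36 genes, as tested (left) and with an offset for length and GC content (right), coloured by role. On the left Sec61b lies high among the short genes and Atf6 low among the long genes, and on the right Manf keeps its place at 0.39 while Atf6 moves to -0.08.

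Further genes of the ER, stress responses and calcium handling (other ER genes) were compared through 6 lists, of which 134 genes were tested. Of these 5 rose (3.73%, against 2.28% of all genes), 0 fell, and the median log2 fold change was 0.08. This median was 0.02 without KO1 and 0.03 with library size alone. The 5 were Erp29, a folding factor of the ER lumen (log2 fold change 0.39, edgeR adjusted p 0.0472), Srp14, a subunit of the signal recognition particle (0.34, 0.0474), the apoptosis genes Bbc3 and Bax (0.50, 0.0446 and 0.47, 0.0464), and Orai1, the plasma membrane channel that refills the ER store (0.47, 0.0474). The 27 tested genes of ER entry and glycosylation had a median of 0.15 with 20 above 0. Their most abundant member Rpn2 was at 0.06 (edgeR adjusted p 0.539), or 0.01 with library size alone. The 24 other folding genes had a median of 0.09, the 38 other stress response genes 0.11 and the 19 other degradation genes 0.04, of which 0 were called. Their most abundant members Txndc5, Tmbim6 and Os9 had adjusted p of 0.498, 0.0751 and 0.115. The 9 Hsp70, Hsp90 and J-domain chaperones of the ER had a median of -0.09, with 7 below 0 and 0 called, and their most abundant member Hsp90b1 (GRP94) was at -0.17 (edgeR adjusted p 0.276). The 17 calcium handling genes had a median of -0.02, and their most abundant member Calu was at -0.06 (0.559), or 0.02 with the length and GC offset. Over these 5 called genes the length and GC offset left log2 fold changes of 0.18 (Bax) to 0.59 (Erp29), and none of them was called under it, or without WT1, WT2, WT3 or KO1.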

How the data were processed

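Lung RNA of 3 WT and 3 KO mice was sequenced. The authors deposited raw counts, whole numbers of reads per gene with no normalization. They trimmed and filtered reads (Trimmomatic 0.36), aligned them to GRCm38 with STAR 2.5.3a and counted them with HTSeq 0.6.0 in GenPipes, with Picard 2.9.0 also named in the submitters' processing notes. The annotation, the use of strand and the treatment of reads with several matches are not given in the sources used here, so counts of the 12 listed genes that share exon bases with another gene are uncertain. The methods name each library as a different mouse, and the p-values measure the spread between these samples, which may be partly technical.

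In R 4.3.3, edgeR 4.0.16 was used with filterByExpr, TMM factors, glmQLFit and glmQLFTest (two-sided), and Benjamini-Hochberg adjustment over all 18660 tested genes. KO2 and KO3 counts were summed, and their mean CPM is 1 replicate in each mean ± SD. SE was derived from the fold change and F. Alternatives were other scaling (RLE factors, library size alone), filters, DESeq2 1.42.0, 6 separate libraries with and without a replicate block, each library left out, WT3 and KO1 left out, a squamous epithelium term, and an offset from smooth fits (mgcv 1.9.3) on exon length and GC content. Positions and exon lengths are from GENCODE M21 (GRCm38), which held 97.3% of identifiers. The fit was tested on simulated data. The 36 genes, the lists and the choice to sum KO2 and KO3 were made with earlier results of these data known. Values in every library are given for genes called in the summed or the 6-library fit, the sensors Ern1, Eif2ak3 and Atf6, the factors Xbp1, Atf4 and Ddit3, and the largest change of each role. Of the other ER lists the called genes and the most abundant member are named, and of the marker lists used the called genes. Marker lists of further cell types are not used here. A planned description of protein ends was not made.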

Additional observations from a re-analysis of the deposited data

How the results depend on the processing

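Of the 36 genes, 2 were called with KO2 and KO3 summed. It was 12 with the 6 libraries kept separate, 15 with DESeq2, 7 with the squamous epithelium term, 5 without WT3 and KO1 together, 1 (Atf6) with library size alone and 0 with the length and GC offset. Leaving out 1 library gave 0 to 2, and it was 0 without WT1, WT2, WT3 or KO1, with 11 to 15 genes then at an unadjusted p of at most 0.05. Over all genes 426 were called, against 3402, 3889, 2277, 2256 and 0 under the same alternatives (306 with library size alone), 937 with at least 10 counts in every library, and 0 to 418 with 1 library left out. The share of calls that were higher in KO was 60.3%, and 38.2% with library size alone. Of the other ER genes 5 were called, against 41 with 6 libraries, 44 with DESeq2, 23 with the squamous term, 15 without WT3 and KO1, 12 with the stricter filter, 0 with library size alone, 0 with the offset and 0 to 4 with 1 library left out. RLE factors and no filter left each count within 1.5 times. The replicate numbers did not pair the libraries: deviations of same-numbered libraries correlated at -0.64, 0.77 and -0.83, and WT3 went with KO1 (0.85). With the replicate block 4 of the 36 genes, 1157 of all genes and 13 other ER genes were called. Over 18 named genes, 17 of them among the 36, and 16 alternatives, 240 of 288 values kept their direction and side of the threshold. Of the rest, 35 newly passed, 12 (of Manf and Sec61b) no longer passed, and 1 reversed, Sel1l at 0.0045 with the offset. Library size alone turned the sign of Asns, Derl1, Derl3 and Ssr1, whose estimates were near 0. The cause of these shifts was not tested. Depth was lowest for Derl3, with 109 or more counts in each library.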
